A study of Mus musculus with 6 samples.

Results

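Interferon-stimulated genes, the transcripts that cells switch on after an interferon binds its receptor, were followed in bulk RNA-seq of mouse bone marrow. The set was chosen by gene name and held 39 genes. Of these, 33 were listed as type I interferon genes and 6 GTPases as interferon gamma-type genes (Gbp2, Gbp3, Gbp5, Igtp, Iigp1 and Irgm1). The classes are not exclusive, and an alternative counted Ifi47 and Cxcl10, listed as type I, with the gamma-type genes. Each of the 39 was found under 1 identifier among the 56496 genes of the deposited table, and all 39 reached the mean level of 1 TPM that was required for testing. TPM is transcript abundance per length, scaled to a fixed total in each library.

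The libraries fell into 2 groups of 3. Onway 1, Onway 2 and Onway 3 came from female BALB/c mice operated on for a tumour of 4T1 (a mammary carcinoma line of the same strain), which then received Onway by gavage for 2 weeks. Control 4, Control 5 and Control 6 came from mice described only as not treated. The sources used here do not give the contents of Onway, and no library is labelled as marrow of a mouse that never carried a tumour. The labels tag the cells as WT and mark every Control library with day 0 and every Onway library with day 14, so the effects of treatment and of labelled day cannot be told apart. Their extraction text also holds steps of a cell culture with dexamethasone, isobutylmethylxanthine and insulin, while the source is given as bone marrow. Whether every library is a separate mouse is not stated, and the p-values therefore cover the spread from library to library, which may be technical.

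Type I interferons signal through the receptor chains IFNAR1 and IFNAR2 to a complex that holds STAT2 and IRF9 and binds the interferon-stimulated response element (ISRE) in gene promoters. Interferon gamma has its own receptor, and its targets are known for a different element, the gamma-activated sequence (GAS). The induced proteins include RNA sensors, nucleases, inhibitors of translation and membrane-remodelling GTPases, and in marrow the pathway is known for acting on blood stem cells and on myeloid cells.

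In the marrow as a whole, neutrophil and erythroid markers were abundant in every library of this tissue, and no marker list had a gene listed at 0 in all libraries. Haemoglobin genes made up between 9.38% (Onway 2) and 33.9% (Onway 3) of the TPM. Between 13354 and 14252 genes reached 1 TPM per library, and read depth is unknown because TPM does not keep it. Markers of megakaryocytes, bone, stroma, skeletal muscle and endothelium passed limma's test as lower in Onway in 8 of 8, 7 of 8, 6 of 6, 8 of 9 and 6 of 7 tested genes, and every one of these genes was lower in each Onway library than in each Control library. Immediate early genes, which respond within minutes to stimulation of cells, went the other way: 4 of 9 passed as higher in Onway, and their TPM summed to 144, 179 and 290 in Control and 2486, 1722 and 856 in Onway. Of all tested genes, 2.99% passed as lower in Onway, 0.233% passed as higher, and 11.5% lay lower in Onway without overlap. In bulk marrow, fewer cells of a type and less RNA per cell cannot be told apart.

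No interferon-stimulated gene passed the test between Onway and Control: the count was 0 of 39 (limma on log2(TPM + 1), two-sided, Benjamini-Hochberg adjustment over all genes, threshold 0.05), where 3.22% of the 14192 tested genes did, 0.233% as higher and 2.99% as lower in Onway. A count of 0 of 39 is near that background. Over all genes, the 33 called higher became 97 without Control 4 and Onway 3, 87 without Control 4 and 16 without Onway 2. At an unadjusted p under 0.05 there were 4 of 39 members (10.3%), against 13.4% of all tested genes. The Onway and Control libraries did not overlap for 4 members (10.3%), against 18.5% of all tested genes. These were the same 4 genes: Mx1 was higher in every Onway library, and Ifi47, Igtp and Iigp1 were lower in every Onway library. The share without overlap was 6.96% in the higher and 11.5% in the lower direction over all tested genes.

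The fold changes were negative for 26 members and positive for 13. Their median was −0.21 on the log2 scale, where that of all tested genes was 0.03, and without Control 6 it was 0.01. The 95% interval lay wholly between −1 and 1 for 18 of the 39 members (46.2%), against 69.8% of all tested genes, so for the other members differences larger than 1 on the log2 scale lay inside the interval. Libraries of 1 group differed more for these genes than for most: the median within-group SD was 0.42 on the log2 scale against 0.26 over all tested genes, and 35 of the 39 members were above that all-gene median.

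**Figure D1:**
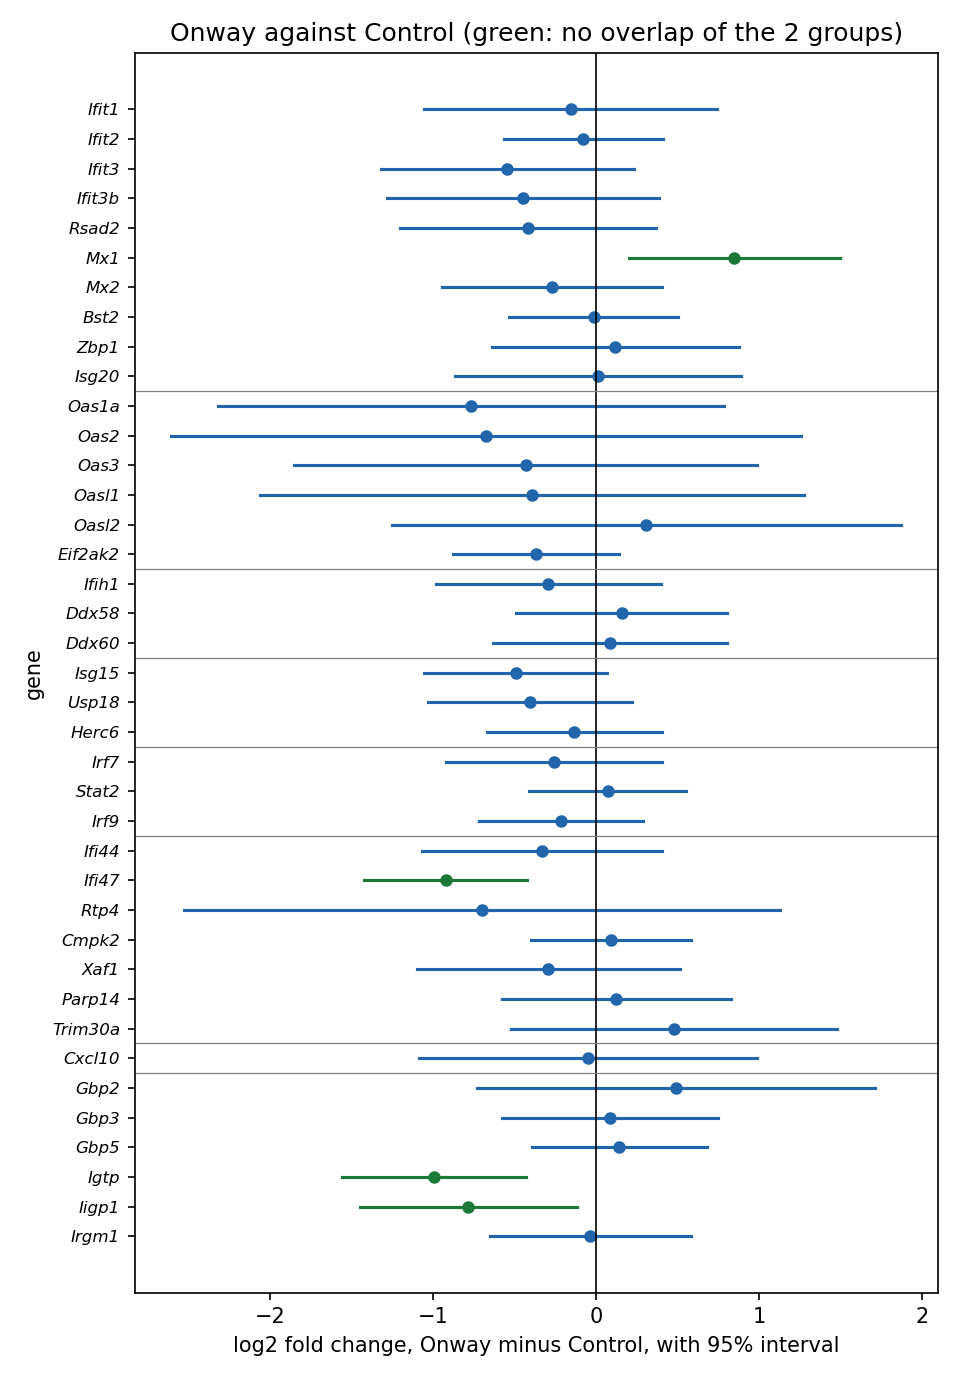
Log2 fold change of Onway against Control for the 39 genes (x axis, log2 scale of TPM + 1; points, limma estimates; bars, 95% intervals; horizontal lines separate the roles). Green points mark the 4 genes whose groups did not overlap, Mx1 on the right and Ifi47, Igtp and Iigp1 on the left, and the widest intervals belong to Oas2 (−2.61 to 1.26) and Rtp4 (−2.53 to 1.13).

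The 3 lower members are immunity-related GTPases (IRG), a family that acts on vacuoles holding intracellular parasites. Iigp1 (Irga6) is an effector of that family, Igtp (Irgm3) one of its regulatory proteins, and Ifi47 is listed here among the type I genes. Igtp, on chromosome 11 (58199556 to 58207591, plus strand, GRCm38), was measured at 47.9, 28.3 and 36.6 TPM in libraries 4, 5 and 6 of Control and at 14.8, 22.7 and 17.2 TPM in libraries 1, 2 and 3 of Onway, the order kept for all genes below. All 3 Onway values lay below the lowest Control value, with means of 37.6 ± 9.80 and 18.2 ± 4.02 TPM (SD, n = 3 each). The difference was −0.99 on the log2 scale (SE 0.24), and it did not pass limma's test after adjustment over all genes (adjusted p = 0.088).

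Ifi47, also on chromosome 11 (49076587 to 49096974, plus strand), was at 27.3, 28.3 and 27.6 TPM in the Control libraries in the same order, and at 11.4, 19.5 and 12.7 TPM in Onway 1, Onway 2 and Onway 3. The Control libraries were nearly equal, and Onway 2 was the nearest Onway library to them. The difference was −0.92 (SE 0.21, 95% interval −1.42 to −0.43), with an adjusted p of 0.075. Ifi47 passed the test under median scaling (adjusted p = 0.031) and quantile normalization (adjusted p = 0.027). Iigp1, on chromosome 18, was low throughout, at 1.72, 1.12 and 1.88 TPM in Control and 0.19, 1.02 and 0.35 TPM in Onway (log2 difference −0.79, adjusted p = 0.28). Its Onway 2 value lay just below that of Control 5.

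The remaining gamma-type GTPases did not follow Igtp and Iigp1. Irgm1, a regulatory IRG protein like Igtp, was at 13.4, 12.1 and 15.3 TPM in Control and 9.67, 19.9 and 11.8 TPM in Onway, with a log2 difference of −0.04 (95% interval −0.65 to 0.58). Onway 2 was the highest library and Onway 1 the lowest, so the Onway group spanned the Control group. The guanylate-binding proteins are larger GTPases that attack vacuoles and cytosolic bacteria. Gbp2 was at 2.05, 5.82 and 5.42 TPM in Control and 5.02, 13.03 and 3.38 TPM in Onway. Gbp3 was at 4.34, 5.21 and 3.92 TPM in Control and 4.55, 7.54 and 3.11 TPM in Onway, and Gbp5 was at 1.48, 1.67 and 1.76 TPM in Control and 1.34, 2.65 and 1.87 TPM in Onway. All 3 were highest in Onway 2, their groups overlapped, and their log2 differences were 0.49, 0.09 and 0.14 (adjusted p from 0.74 to 0.94).

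**Figure D2:**
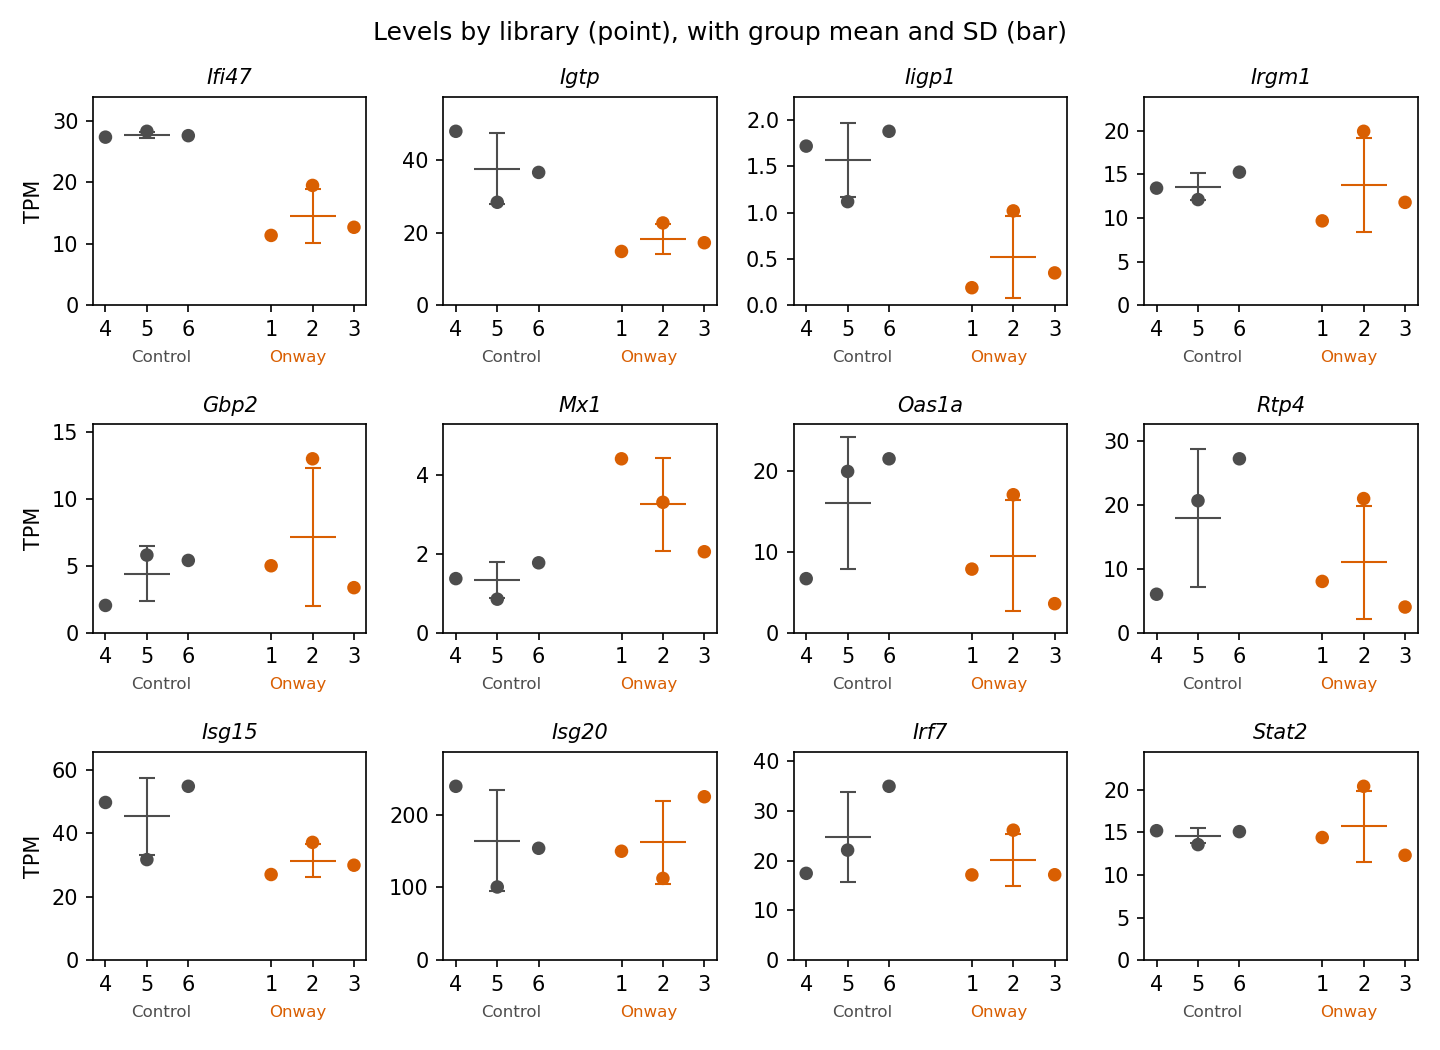
TPM of 12 genes by library (y axes, linear TPM from 0; points, single libraries numbered as in the text; horizontal lines, group means; bars, SD, n = 3 per group). Ifi47, Igtp and Iigp1 show Onway below Control without overlap and Mx1 the reverse, while Oas1a, Rtp4 and Irf7 show Control 4, Onway 1 and Onway 3 low and Control 6 and Onway 2 high inside their groups.

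The level of Ifi47 was the sum of annotated transcripts that differed in how they moved. Transcript Ifi47-202, which starts at 49076587 with a first exon of its own, was at 20.5, 20.5 and 18.5 TPM in Control and 6.87, 7.21 and 3.87 TPM in Onway. Transcript Ifi47-201, which starts at 49087039, was at 5.51, 7.31 and 8.57 TPM in Control and 4.15, 11.7 and 8.70 TPM in Onway. The groups were apart for the first and overlapped for the second. Both are annotated as protein-coding and end within a few bases of each other, so much of their sequence is shared, and the split between them was not tested. For Igtp, the main transcript Igtp-201 was at 32.0, 17.8 and 24.7 TPM in Control and 9.23, 14.7 and 9.55 TPM in Onway, and a newly assembled transcript was at 8.67, 3.28 and 3.89 TPM against 3.23, 4.00 and 3.98 TPM. Without newly assembled transcripts, Igtp passed the test (log2 difference −1.11, adjusted p = 0.044).

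Leaving out Onway 2, the Onway library nearest to Control for Igtp, Iigp1 and Ifi47, brought Ifi47 past the threshold (log2 difference −1.14, adjusted p = 0.024), while leaving out any other single library gave it an adjusted p from 0.14 to 0.23. Igtp overlaps its neighbour Irgm2 on the same strand and shares 11.8% of its 50-base stretches with it, so their reads may be split between them. Irgm2 itself was at 20.7, 9.90 and 14.5 TPM in Control and 8.15, 9.98 and 7.21 TPM in Onway (adjusted p = 0.30). Ifi47 overlaps Olfr56 on the same strand and shares 2.54% of its 50-base stretches with it.

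Markers of tissue macrophages were also lower in the Onway libraries. Their 8 genes summed to 374, 234 and 336 TPM in Control and 128, 145 and 159 TPM in Onway, and 7 of 8 lay lower in every Onway library than in any Control library, of which Vcam1 passed the test (adjusted p = 0.009). The exception was Adgre1 (log2 difference 0.17). Of all tested genes, 11.5% lay lower in Onway without overlap and 2.99% passed as lower. Endothelial markers summed to 71.4, 62.4 and 70.9 TPM in Control and 24.99, 31.4 and 27.7 TPM in Onway. Monocyte markers summed to 490, 752 and 784 TPM in Control and 936, 1306 and 563 TPM in Onway. Their groups overlapped: the Onway sums of 936 and 1306 TPM lay above every Control sum, while 563 TPM lay inside the Control range. The part of these cell types in the levels of Igtp, Ifi47 and Iigp1 was not tested.

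Mx1, a dynamin-like GTPase, was the only member above Control in every Onway library. It was at 1.37, 0.85 and 1.77 TPM in Control and 4.40, 3.30 and 2.05 TPM in Onway (log2 difference 0.85, SE 0.28, adjusted p = 0.22). Onway 3 stood just above Control 6. The sum came from 12 transcripts with a value above 0, none of which held more than 28.2% of the gene's TPM. The transcript with the largest share is annotated for nonsense-mediated decay. It was at 0.73, 0.69 and 0.72 TPM in Control and 0.36, 0.39 and 0.99 TPM in Onway. A retained-intron transcript of 352 bases was at 0 TPM in each Control library and 1.24, 0.24 and 0.38 TPM in Onway. A protein-coding transcript of 2695 bases was at 0, 0 and 0.38 TPM in Control and 0.75, 0.96 and 0.35 TPM in Onway. The split between these transcripts was not tested. Mx2, the paralogue of Mx1, was at 1.06, 1.06 and 2.77 TPM in Control and 1.02, 1.09 and 1.15 TPM in Onway. Control 6 was the single high library.

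Among the other antiviral effectors, the IFIT proteins bind foreign RNA ends and hold back translation. Ifit3 was at 1.11, 2.33 and 2.36 TPM in Control and 0.31, 1.60 and 1.23 TPM in Onway (log2 difference −0.55, adjusted p = 0.55). Ifit3b was at 0.73, 1.5 and 2.73 TPM in Control and 0.78, 1.55 and 0.40 TPM in Onway, and it shares 44.5% of its 50-base stretches with Ifit3, so the levels of these neighbours on chromosome 19 are uncertain apart from each other. Ifit1 lay between 0.69 and 2.84 TPM and Ifit2 between 4.52 and 7.63 TPM. All 4 were higher in Control 5, Control 6 and Onway 2 than in any of the other 3 libraries.

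Rsad2 (viperin), which makes a chain-terminating nucleotide, and Isg20, an RNA exonuclease, were high in other libraries. Rsad2 was at 42.6, 18.3 and 33.8 TPM in Control and 17.4, 20.98 and 29.4 TPM in Onway, with Control 4 and Control 6 highest. Isg20, the most abundant member, was at 239, 101 and 154 TPM in Control and 150, 112 and 225 TPM in Onway. Isg20 was thus highest in Control 4 and Onway 3, the libraries with the largest haemoglobin shares (26.6% and 33.9%), and lowest in Control 5 and Onway 2, those with the smallest (11.6% and 9.38%); this link was not tested. Bst2 (tetherin), which holds budding virus at the membrane, lay between 25.4 and 43.0 TPM, and Zbp1, a sensor of left-handed nucleic acid, between 3.95 and 9.33 TPM.

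By role, the oligoadenylate synthetases (OAS) with Eif2ak2 had the largest median spread inside the groups among the 8 roles, though single genes elsewhere, such as Rtp4 (within-group SD 1.07 on the log2 scale), varied as much. OAS proteins sense double-stranded RNA and make the second messenger that activates RNase L, and Oasl1 and Oasl2 are relatives with other roles. Oas1a was at 6.69, 19.9 and 21.5 TPM in Control and 7.87, 17.1 and 3.6 TPM in Onway. Oas2 was at 3.99, 17.2 and 19.5 TPM in Control and 6.35, 16.1 and 2.62 TPM in Onway. Newly assembled transcripts held 45.8% of the TPM of Oas2, and it overlaps Gm43068 on the opposite strand. Oas3 was at 7.59, 14.6 and 24.5 TPM in Control and 8.29, 21.8 and 5.57 TPM in Onway. In all 3 genes, Control 5, Control 6 and Onway 2 were high, and Control 4, Onway 1 and Onway 3 were low.

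Oasl1 was at 2.56, 7.20 and 19.9 TPM in Control and 4.69, 9.26 and 3.6 TPM in Onway, and Oasl2 at 5.00, 18.5 and 7.25 TPM in Control and 11.3, 23.2 and 5.15 TPM in Onway. Oasl2 departed from the others in Control 6. The 5 genes summed to 25.8, 77.4 and 92.6 TPM in Control and 38.5, 87.3 and 20.5 TPM in Onway. Their log2 differences between the groups lay between −0.77 (Oas1a, 95% interval −2.32 to 0.79) and 0.31 (Oasl2), with adjusted p from 0.69 to 0.89. The median within-group SD of the 5 genes with Eif2ak2 was 0.93 on the log2 scale, against 0.26 over all tested genes. Eif2ak2 (PKR), a kinase that stops translation on double-stranded RNA, varied less, at 7.99, 7.73 and 9.68 TPM in Control and 5.40, 8.60 and 5.33 TPM in Onway (adjusted p = 0.53). Oas1a shares 57.6% of its 50-base stretches with Oas1g, so its level is uncertain apart from that gene.

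**Figure D3:**
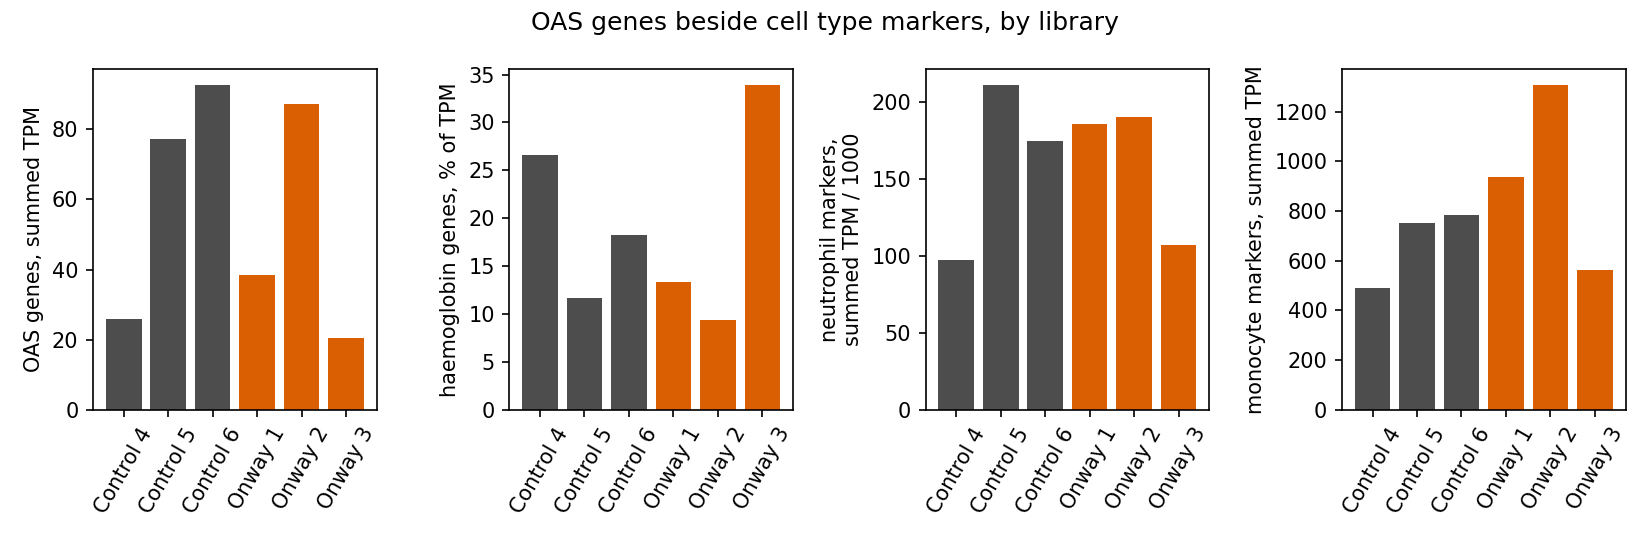
Summed TPM of the 5 OAS genes beside the haemoglobin share of TPM and the summed TPM of neutrophil markers and monocyte markers, by library (bars from 0; grey, Control; orange, Onway). The OAS sum is low in Control 4, Onway 1 and Onway 3 (20.5 to 38.5 TPM); haemoglobin is highest in Control 4 and Onway 3 but not in Onway 1, where neutrophil and monocyte markers are as high as in libraries with a high OAS sum.

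The make-up of the libraries differed along with the OAS sum in part. Control 4 and Onway 3 had the largest haemoglobin shares and the smallest sums of neutrophil markers (96927 and 106723 TPM) and monocyte markers (490 and 563 TPM). Onway 1 was low for the OAS genes but had a haemoglobin share of 13.3%, a neutrophil sum of 185436 TPM and a monocyte sum of 936 TPM, each nearer to the libraries with a high OAS sum. Rescaled to the TPM outside the haemoglobin genes, the OAS sum was 35.2, 87.6 and 113 in Control and 44.4, 96.3 and 31.1 in Onway, in the same order of libraries. Markers of plasmacytoid dendritic cells, the main source of type I interferon among blood cells, summed to 117, 57.1 and 131 TPM in Control and 67.9, 112 and 102 TPM in Onway. Control 6 was highest through Cox6a2, a gene that skeletal muscle also expresses (45.1, 14.5 and 74.7 TPM in Control, 3.59, 5.13 and 5.1 TPM in Onway). Leaving Cox6a2 out, the other 8 markers summed to 71.8, 42.7 and 55.8 TPM in Control and 64.3, 107 and 96.7 TPM in Onway. The rescaling removes dilution by haemoglobin only, and the part of cell composition in the OAS levels was not tested.

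The sensors that precede interferon production had overlapping groups. Ddx58 (RIG-I), which binds RNA ends, was at 10.95, 13.7 and 17.6 TPM in Control and 15.9, 21.7 and 10.8 TPM in Onway. Ifih1 (MDA5), which binds long double-stranded RNA, lay between 2.36 and 6.20 TPM, and the related helicase Ddx60 between 2.54 and 5.93 TPM. The intervals of all 3 lay within −1 and 1 on the log2 scale (adjusted p from 0.73 to 0.94).

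In the ISG15 pathway, Isg15, the ubiquitin-like protein attached to other proteins after interferon, was at 49.7, 31.7 and 54.8 TPM in Control and 27.01, 37.1 and 29.9 TPM in Onway. Control 5 lay inside the Onway range (log2 difference −0.50, 95% interval −1.06 to 0.07, adjusted p = 0.44). Usp18, which removes ISG15 and damps the type I receptor, was at 5.41, 4.35 and 6.83 TPM in Control and 2.48, 5.18 and 4.38 TPM in Onway (adjusted p = 0.59). Herc6, the mouse ligase for ISG15, lay between 4.72 and 8.28 TPM.

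The transcription factors of the response had overlapping groups as well. Irf7, which amplifies type I interferon, was at 17.4, 22.1 and 34.9 TPM in Control and 17.1, 26.1 and 17.2 TPM in Onway. Irf9, the DNA-binding part of the ISRE complex, was at 22.5, 21.3 and 29.1 TPM in Control and 19.0, 26.8 and 17.2 TPM in Onway. Stat2 was at 15.2, 13.6 and 15.1 TPM in Control and 14.4, 20.4 and 12.3 TPM in Onway. The log2 differences were −0.26, −0.21 and 0.07, and each interval lay within −1 and 1. Newly assembled transcripts held 55.0% of the TPM of Stat2. For Irf7 and Irf9 the highest library was Control 6, and for Stat2 it was Onway 2.

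Of the remaining type I genes, Rtp4, a chaperone of receptors, repeated the library order of the OAS genes, at 6.02, 20.6 and 27.2 TPM in Control and 8.02, 20.95 and 4.02 TPM in Onway (adjusted p = 0.75). Trim30a, a damper of Toll-like receptor signalling, was at 14.6, 24.1 and 23.0 TPM in Control and 31.2, 47.9 and 15.2 TPM in Onway (log2 difference 0.48, adjusted p = 0.70). Newly assembled transcripts held 38.1% of its TPM, and without them its log2 difference was 0.33 (adjusted p = 0.84). Ifi44, Cmpk2, Xaf1 and Parp14 had overlapping groups, with log2 differences between −0.33 and 0.12. For Parp14, a newly assembled transcript held 51.7% of the TPM. The chemokine Cxcl10, which draws T cells and NK cells, was low and uneven, at 3.12, 0.45 and 0.58 TPM in Control and 1.36, 1.46 and 0.46 TPM in Onway, and it overlaps Art3 on the opposite strand.

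**Figure D4:**
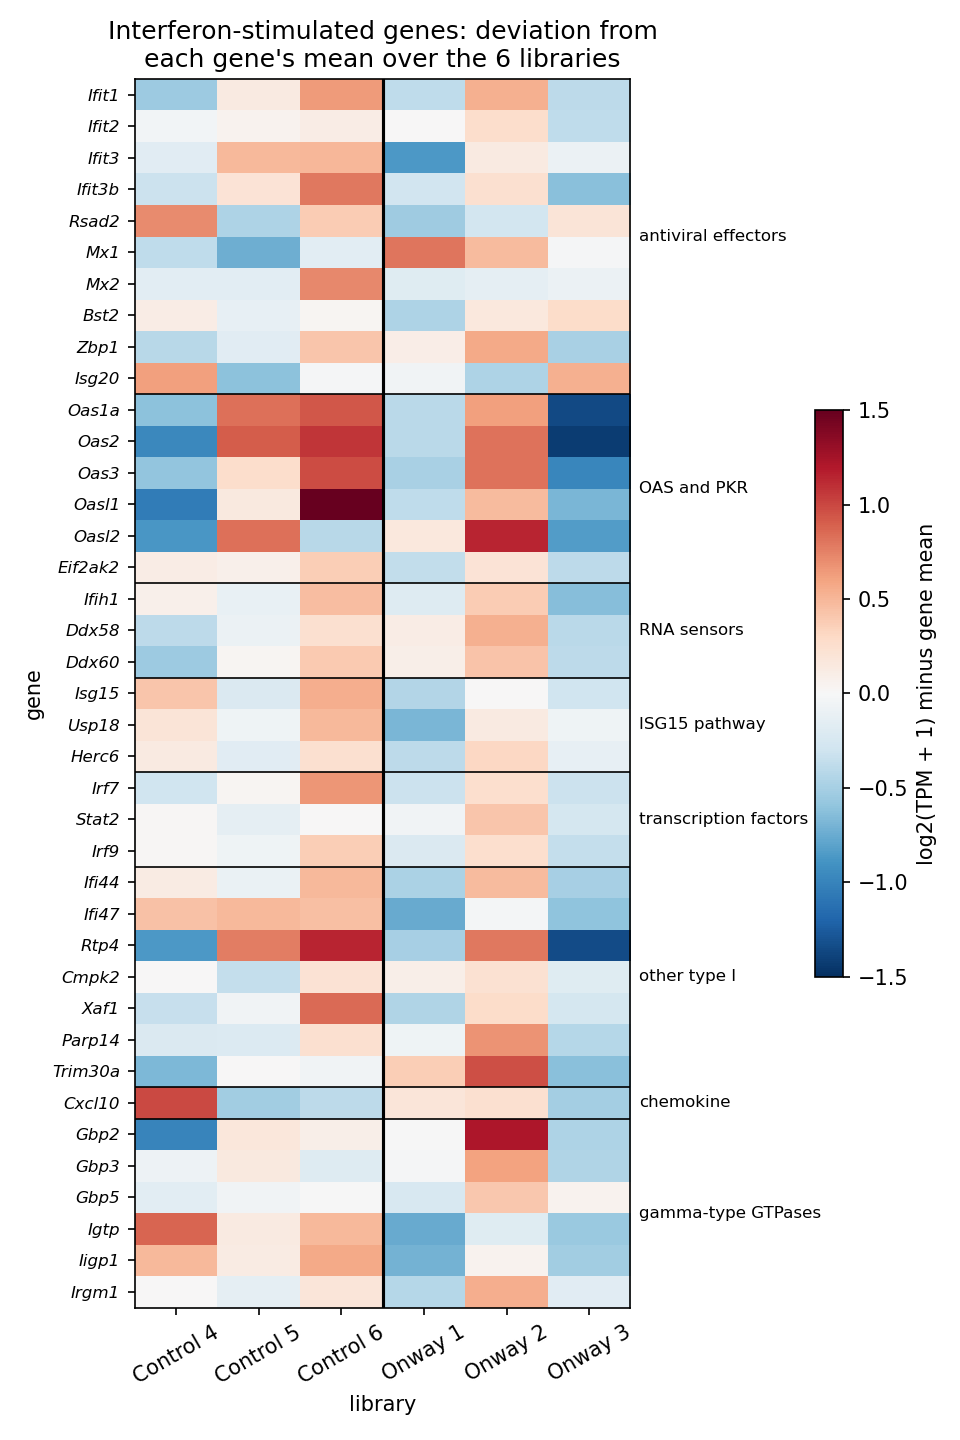
Deviation of each gene (rows, grouped by role) from its own mean over the 6 libraries (columns), on the scale of log2(TPM + 1); red is above and blue below the mean, and the black line separates Control from Onway. Columns Control 6 and Onway 2 are mostly red (32 and 34 of 39 genes above their mean), and Onway 1 and Onway 3 mostly blue (30 and 35 of 39 below).

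Across the members, the high and low libraries were found in both groups. Of the 39 members, 18 were highest in Control 6 and 14 in Onway 2, together 32 of 39, where these libraries hold the highest value for 46.0% of all tested genes. Control 6 alone holds the highest value for 8.43% of all tested genes and Onway 2 for 37.6%. The lowest value fell in Control 4, Onway 1 or Onway 3 for 35 of 39 members, against 63.7% of all tested genes. In 12 members, Control 5, Control 6 and Onway 2 were each above Control 4, Onway 1 and Onway 3, a split found in 7.58% of all tested genes and noticed in these data: Ifit1, Ifit2, Ifit3, Ifit3b, Oas1a, Oas2, Oas3, Oasl1, Irf7, Rtp4, Xaf1 and Gbp2. The highest value was at least 4 times the lowest in 13 members, against 17.1% of all tested genes.

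Type I genes and gamma-type GTPases were then compared in each library. The median of log2(TPM + 1) over the 33 type I genes exceeded that over the 6 gamma-type GTPases by 0.80, 0.42 and 1.26 in Control 4, Control 5 and Control 6, and by 0.36, 0.27 and 0.54 in Onway 1, Onway 2 and Onway 3. The excess was positive in all 6 libraries, and the ranges of the groups overlapped between 0.42 and 0.54. The pooled SD of this excess within groups was 0.31. A separate measure, the difference of the median log2 fold changes, type I minus gamma-type, was −0.28, and that SD is not its spread. The medians were −0.26 over the type I genes and 0.03 over the gamma-type GTPases. Without Control 6 this difference of median fold changes was −0.07. It carries no test, because the members were chosen by name with results of these data known.

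The median over the 6 gamma-type GTPases stood between unlike genes, since Igtp and Iigp1 had log2 fold changes of −0.99 and −0.79 and Irgm1, Gbp2, Gbp3 and Gbp5 lay between −0.04 and 0.49. By protein family, a grouping made after the values were seen, the median was −0.86 over the 4 IRG genes (Ifi47, Igtp, Iigp1 and Irgm1) and 0.14 over the 3 guanylate-binding genes. Family did not mark the difference gene by gene, as Irgm1 lay with the guanylate-binding genes. Because 3 of the 4 IRG genes had been noticed for their lack of overlap, these medians describe the chosen genes and support nothing further.

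**Figure D5:**
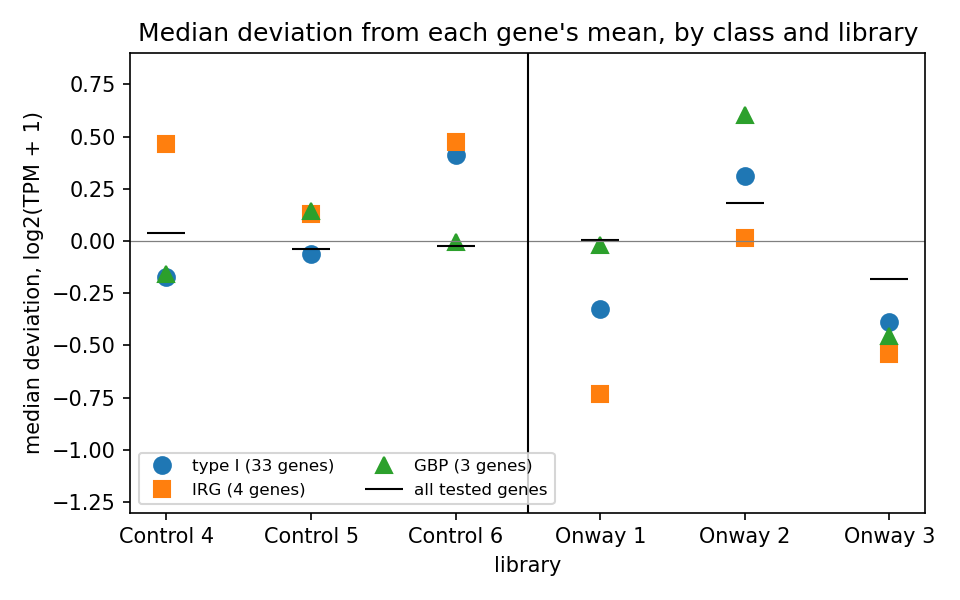
Median deviation from each gene's mean (y axis, log2(TPM + 1)) over the 33 type I genes, the 4 IRG genes (Ifi47 is counted in both) and the 3 guanylate-binding (GBP) genes, by library (x axis), with the families grouped after the values were seen; black bars give the median over all tested genes. The IRG squares are above 0 in the 3 Control libraries, just above 0 in Onway 2 (0.02) and lowest in Onway 1 (−0.73) and Onway 3 (−0.54). The type I circles are highest in Control 6 (0.41) and Onway 2 (0.31).

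Promoter windows from RefSeq (build GRCm38.p6, 250 bases before to 50 bases after the annotated start) were given for 31 of the 39 members, in 37 windows. They were searched on both strands for an ISRE core, GAAANNGAA, and a GAS core, TTCNNNGAA, where N is any base, and matches may overlap each other. An ISRE core was found in 21 of the 31 genes (67.7%), against 9.76% of the 27025 genes with such a window, and in all 5 gamma-type GTPases with a window as well as in 16 of 26 type I genes (61.5%). A GAS core was found in 7 of the 31 genes (22.6%), against 9.55% of all genes. By class, these were 2 of 5 gamma-type GTPases (40.0%) and 5 of 26 type I genes (19.2%). The 5 windows below are shown because the text turns on these genes. They are a pair of OAS genes that varied between libraries, and Gbp2, Igtp and Ifi47. The estimated group differences of these last genes were unlike in sign, though none passed the test in the reported fit. Each runs 5′ to 3′ on the strand of its gene, and capitals mark every match to either core.
Oas1a, chr5:120907476-120907775, minus strand: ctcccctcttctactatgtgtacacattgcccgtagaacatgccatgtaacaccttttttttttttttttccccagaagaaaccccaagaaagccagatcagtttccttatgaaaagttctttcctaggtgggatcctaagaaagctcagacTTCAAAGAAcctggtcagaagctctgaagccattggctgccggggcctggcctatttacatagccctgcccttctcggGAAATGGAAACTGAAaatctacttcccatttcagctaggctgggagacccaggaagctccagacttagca
Oas3, chr5:120777610-120777909, minus strand: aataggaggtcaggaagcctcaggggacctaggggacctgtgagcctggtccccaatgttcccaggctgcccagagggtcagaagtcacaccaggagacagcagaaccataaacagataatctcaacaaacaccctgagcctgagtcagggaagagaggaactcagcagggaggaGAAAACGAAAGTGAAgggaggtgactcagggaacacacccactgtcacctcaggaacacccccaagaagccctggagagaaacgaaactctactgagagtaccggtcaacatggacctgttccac
Gbp2, chr3:142620413-142620712, plus strand: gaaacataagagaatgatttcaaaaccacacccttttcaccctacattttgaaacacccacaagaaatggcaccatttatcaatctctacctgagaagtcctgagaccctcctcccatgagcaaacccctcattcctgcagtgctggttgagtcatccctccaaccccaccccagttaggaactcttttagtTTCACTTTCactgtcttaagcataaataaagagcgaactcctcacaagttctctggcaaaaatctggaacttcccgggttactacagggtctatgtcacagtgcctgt
Igtp, chr11:58199306-58199605, plus strand: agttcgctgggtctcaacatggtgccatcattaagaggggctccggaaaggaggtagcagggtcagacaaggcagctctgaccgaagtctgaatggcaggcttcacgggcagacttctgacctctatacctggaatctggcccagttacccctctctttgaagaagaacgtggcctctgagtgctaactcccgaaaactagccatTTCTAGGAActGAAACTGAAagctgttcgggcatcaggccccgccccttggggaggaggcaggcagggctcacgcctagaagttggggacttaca
Ifi47, chr11:49076337-49076636, plus strand: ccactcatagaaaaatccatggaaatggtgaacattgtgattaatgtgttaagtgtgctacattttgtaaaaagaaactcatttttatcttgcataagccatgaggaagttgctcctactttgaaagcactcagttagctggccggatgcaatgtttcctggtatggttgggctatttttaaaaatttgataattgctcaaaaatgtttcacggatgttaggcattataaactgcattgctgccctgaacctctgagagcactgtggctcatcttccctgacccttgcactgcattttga

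In Oas1a and Oas3, a pair of ISRE cores overlapped in 1 run of capitals near the start, and Oas1a held a GAS core further upstream. In Igtp, a GAS core and an ISRE core lay next to each other, and Gbp2 held a single ISRE core on the other strand. The Ifi47 window, which covers the start of transcript Ifi47-202, held neither core. A match describes letters only, and the lack of one says nothing of binding. Igtp and Gbp2 both had an ISRE core in their window, with log2 differences between the groups of −0.99 and 0.49. Neither difference passed limma's test (adjusted p = 0.088 and 0.74).

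Other genes of the pathway, from lists fixed by name, gave the setting. The 11 interferon genes themselves were all under the filter, 8 were listed at 0 in every library, and the highest value was 0.22 TPM, for Ifng in Onway 2. None of 6 receptor genes passed the test. Ifnar1 was at 17.9, 16.9 and 17.6 TPM in Control and 25.02, 30.1 and 18.8 TPM in Onway, without overlap (adjusted p = 0.38). The other receptor genes, among them Il10rb and Ifnlr1 (adjusted p = 0.64 and 0.74), had overlapping groups. None of 11 genes of JAK-STAT and IRF signalling passed. Irf8, which guides monocyte and dendritic cell development, was at 45.7, 33.03 and 39.4 TPM in Control and 64.8, 90.0 and 66.7 TPM in Onway (log2 difference 0.89, adjusted p = 0.071). Irf5 and Irf2 were also higher without overlap (adjusted p = 0.13 and 0.32). These 3 genes were 27.3% of the list, where 6.96% of all tested genes were higher without overlap.

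Of 13 tested genes of nucleic acid sensing, none passed. Unc93b1, which carries Toll-like receptors to endosomes, and the receptors Tlr7 and Tlr9 had log2 differences of 0.65, 0.70 and 0.94 (adjusted p = 0.19, 0.25 and 0.26). None of 43 tested further interferon-stimulated genes passed, 5 being higher and 2 lower without overlap. Together these were 16.3% of the list, against 18.5% of all tested genes. Shisa5 was at 63.1, 75.1 and 81.2 TPM in Control and 124, 121 and 151 TPM in Onway (adjusted p = 0.055). Lgals3bp, a secreted scavenger-like glycoprotein, was at 41.1, 26.2 and 37.8 TPM in Control and 16.7, 19.7 and 18.2 TPM in Onway (adjusted p = 0.071). Trim30d, the neighbour of Trim30a which shares with it 5.98% of the 50-base stretches of Trim30a, was at 2.14, 0.14 and 0.05 TPM in Control and 3.74, 9.29 and 2.48 TPM in Onway (adjusted p = 0.21).

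Of 14 tested further targets of interferon gamma, 4 had groups without overlap (28.6%, against 18.5% of all tested genes). In the test, 1 gene passed as lower and none as higher, against 2.99% and 0.233% of all tested genes. It was Ubd (FAT10), a ubiquitin-like modifier that marks proteins for degradation, at 5.88, 13.4 and 11.6 TPM in Control and 0.57, 2.16 and 1.58 TPM in Onway. Its log2 difference was −2.20 (SE 0.36, limma, adjusted p = 0.019). The adjusted p was 0.067 without Control 6, 0.056 without Onway 2 and 0.081 without Onway 3. Serpina3g, a protease inhibitor of leukocytes, was at 5.56, 9.98 and 9.54 TPM in Control and 2.5, 5.11 and 2.90 TPM in Onway (adjusted p = 0.14). Ciita, the activator of MHC class II genes, was higher in every Onway library (means 0.823 and 2.94 TPM, adjusted p = 0.18). Cxcl9, the chemokine related to Cxcl10, was lower in every Onway library (means 1.53 and 0.573 TPM, adjusted p = 0.26).

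The authors also deposited a mean of TPM per group, and these means rest on a further value in each group, which was computed here as what 4 times the mean leaves beyond the 3 libraries. By the authors' deposited table, the Control and Onway means were 25.2 and 16.6 TPM for Ifi47 and 37.3 and 21.6 TPM for Igtp. The further values from the authors' deposited table were 17.8 TPM (Control) and 22.8 TPM (Onway) for Ifi47, 36.6 and 31.6 TPM for Igtp, and 0.71 and 0.74 TPM for Iigp1. For Ifi47 and Iigp1 they therefore did not show Onway below Control, and for Igtp the Onway value lay inside the range of the Control libraries. For Mx1 the authors' deposited table left 1.83 and 2.13 TPM, and for Oas1a 7.20 and 13.9 TPM. These values entered no test.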

How the data were processed

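Bone marrow RNA was isolated with RNeasy columns and sequenced from SMARTer libraries per the labels' protocols, which do not state strand handling. In 1 table, the authors gave TPM for 158850 transcripts, 16416 of them newly assembled (identifiers starting with MSTRG). The column unit is taken to be TPM because every library has the same sum. Builds named in the submitters' processing notes are GRCm38 and mm10. The aligner and quantifier were not named in what was used here. Transcript lengths deposited by the authors were read for description only. Onway columns carry another prefix in the table and were matched to the titles by number. 4 times the deposited Control mean never fell short of the 3 Control libraries, nor 4 times the Onway mean of the 3 Onway libraries (tolerance 0.011 TPM), while the crossed matches fell short for 30461 and 28992 transcripts.

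Transcript values were summed per gene. The 14192 genes whose mean reached 1 TPM were analysed as log2(TPM + 1), a scale that understates changes of low genes, with limma 3.58.1 in R 4.3.3 (trend, robust moderation, no covariate, all 6 libraries, two-sided). The fit was tested on simulated data. Positions and transcripts are from GENCODE M21, and promoter windows from RefSeq. Shared sequence was counted as 50-base stretches found in another gene's transcripts. The members, the lists and the rules were chosen with earlier results of these data known. By the rule for naming genes, all 39 members are named, with library values for those with the smallest p, without overlap, or among the GTPases and transcription factors. Of each pathway list, the genes that passed and the 3 with the smallest p are named. Cell type lists are given mainly as sums or counts, and those of NK and T cells, B cells and 4T1 cells are not described. Irgm2, Cxcl9 and the macrophage marker were chosen after their values were seen. Alternatives changed the pseudocount, the filter, the scaling, the moderation, the transcripts counted, the class membership (Ifi47 and Cxcl10 counted with the gamma-type genes) and the libraries.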

Additional observations from a re-analysis of the deposited data

How the results depend on the processing

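The count of members past the threshold was 0 in the reported fit and 1 under median scaling (Ifi47, log2 difference −0.93, adjusted p = 0.031), quantile normalization (Ifi47, −0.97, adjusted p = 0.027) and without newly assembled transcripts (Igtp, −1.11, adjusted p = 0.044). Leaving out 1 library at a time gave counts of 0 to 1, the 1 being Ifi47 without Onway 2. Over all alternatives the adjusted p ranged from 0.024 to 0.23 for Ifi47 and from 0.044 to 0.25 for Igtp. Of 606 member values under 16 alternatives, none changed sign with a call, and 36 values of 20 uncalled members changed sign. The count over all genes, 457, became 203 with a filter of 5 TPM, 304 without both Control 4 and Onway 3, and 262 to 488 with 1 library left out, lowest without Onway 2. Without Control 6 the members' median log2 fold change was 0.01, and without Onway 2 it was −0.38 with 35 of 39 negative. The median of all genes moved to 0.11 without Onway 3. The type I minus gamma-type difference stayed negative, from −0.41 to −0.07. The cause of these shifts was not tested. No paired analysis was possible because the groups share no replicate number. Read depth is unknown, so low genes such as Iigp1, Mx1 and the IFIT genes carry an error that cannot be given.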
